A study of Rattus norvegicus with 4 samples.

Results

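Vascular smooth muscle cells are the contractile cells wrapped around arteries, arterioles and veins. Here they were picked out of single-cell RNA sequencing of rat dorsal root ganglia, which hold the cell bodies of sensory neurons. A cell was taken when the smooth muscle genes Acta2, Myh11, Tagln and Cnn1 together made up at least 20 of every 10000 of its UMIs (unique molecular identifiers, each standing for 1 captured transcript). Cells rich in neuronal genes (Snap25, Uchl1, Tubb3 and Stmn2, 20 or more per 10000), in endothelial genes (Flt1, Kdr and Emcn, 10 or more) or in fibroblast genes (Dcn and Lum, 10 or more) were left out. Chosen by these values, 528 cells were found among the 46679 in all that had at least 200 genes and at most 25% mitochondrial UMIs.

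The cells came from the L4-L6 ganglia on the operated side of male Sprague-Dawley rats, wild type and otherwise naive. They formed a Sham group and a CPIP group, a name the labels do not spell out and which in the field stands for chronic post-ischaemia pain. Each group had 2 libraries (Sham 1, Sham 2, CPIP 1 and CPIP 2), called biological replicates in the labels, and each library pooled 3 rats. Where 4 values are given in a row they follow that order. The age of the rats and the time after surgery were not used here, and differences between single rats cannot be seen in pools.

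Smooth muscle tone sets the width of a vessel. Calcium entry and G-protein-coupled receptors for noradrenaline, neuropeptide Y, endothelin and other transmitters activate myosin light chain kinase (Mylk), and myosin (Myh11) then pulls on smooth muscle actin (Acta2). Nitric oxide opposes this through guanylyl cyclase and the cGMP-dependent kinase Prkg1. Serum response factor (SRF) with its partner myocardin drives many of the contractile genes through a short DNA element, the CArG box. Pericytes are the mural cells of capillaries and share part of this programme, and a graded series of mural cells lies between the types.

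The promoter of Acta2 is shown because that gene is part of the rule, was among the leading genes of the cells and carries known SRF elements. The line gives the 250 bases before its RefSeq start site (GRCr8, chr1:241172504-241172753, minus strand, written 5′ to 3′ in the direction of the gene), with 2 near-matches to the CArG box in capitals.

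Acta2: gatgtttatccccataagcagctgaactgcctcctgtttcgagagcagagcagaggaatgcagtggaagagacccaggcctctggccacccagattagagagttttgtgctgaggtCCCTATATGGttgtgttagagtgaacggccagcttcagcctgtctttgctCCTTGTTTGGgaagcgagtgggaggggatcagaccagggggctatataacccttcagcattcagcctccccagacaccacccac

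These elements began 134 and 84 bases before the start. Each departs from the CArG box at 1 of its 6 central positions, and the search with 1 mismatch was added after the exact search had found no match in any of 11 windows from 10 contractile genes. Among all 33469 RefSeq promoter windows of the same length, 1.5% held an exact CArG box and 8.08% a box with 1 mismatch, both strands searched. Of the 11 contractile windows only that of Acta2 held the box with 1 mismatch, and 5 held an E-box (CANNTG), against 65.5% of all windows. The other windows came from Cnn1, Mylk, Tpm1, Flna, Tpm2, Myl6, Cald1 (2 starts), Ppp1r12a and Actn1. Myh11 and Tagln had no window under their symbols, so their promoters were not searched.

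The values that chose the cells were as follows. The lowest level in a member was 20.1 per 10000 UMIs and the highest 338, with medians of 97.3, 106, 101 and 112 by library. At the edge of the rule, 36 members lay between 20 and 30 per 10000 (8, 13, 7 and 8 cells), and 22, 21, 24 and 17 cells in the same library order lay just outside, between 10 and 20. Behind these levels stood a median of 17 to 21 UMIs of the 4 genes per cell, and a lowest value of 2 UMIs. A UMI of Acta2 was found in 95.3% to 98.7% of members and of Myh11 in 93.8% to 98.8%. Among all other retained cells, which were deeper (median 3733 to 4343 UMIs against 1781 to 1921), the shares were 1.41% to 2.25% for Acta2 and 1.98% to 2.52% for Myh11. Tagln, an actin-binding protein, was found in 77.1%, 66.3%, 55.2% and 84.8% of members, and Cnn1, calponin, in 18.4% to 21.4%.

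The label was checked with 12 smooth muscle genes that the rule did not use. All 12 were detected, and together they made up 74.5, 93.9, 87.2 and 83.9 of every 10000 UMIs. Among them were the myosin light chain Myl9, the tropomyosin Tpm2 and the kinase Mylk. Leukocyte genes were near 0: all 8 measured lymphocyte and neutrophil markers had no UMI among the 1384451 of the members, which allows up to 0.0217 per 10000. The 4 measured red cell genes together reached at most 0.46 per 10000. Markers of satellite glia (12.7 to 18.5 per 10000, 10 of 10 detected) and of fibroblasts (13.8 to 16.7, with Lum, Pdgfra and Dpt at 0) were present at low levels in all 4 libraries.

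The 528 cells were not uniform. Clustering of the members alone gave 6 sub-clusters, described here without a test because the same genes made them. Sub-clusters 2, 3 and 4 held 350 cells (87, 131, 57 and 75 by library), had a median rule level of 124 per 10000 and are called the core. The core kept the smooth muscle name: genes of that list which the rule did not use summed to 101 to 112 per 10000 in it. Its 9 measured endothelial markers summed to only 0.18 to 0.61 per 10000, with Tie1 at 0.

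Sub-cluster 3, the largest with 197 cells, was led by the transcription factor Egr2, the potassium channel Kcna5, Mill1, Csrp2 and Kank1. Csrp2 is a LIM protein of smooth muscle. Sub-cluster 4 (69 cells) was led by Plau, the urokinase-type plasminogen activator, at 5621 counts per 1000000 UMIs (CPM) against 1334 in the other members, and by Xirp1 and the matrix protein Thbs1. Sub-cluster 2 (84 cells, the shallowest with a median of 1470 UMIs) was led by Csmd1, Syt1, Nedd4l and Lbh.

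Sub-cluster 5 held 105 cells (27, 29, 23 and 26) and was led by Rgs5 and Vtn, both on the pericyte list, and by Ifitm1, Spry4 and Steap4. Rgs5, a brake on G-protein signalling and a common pericyte marker, stood at 1712 CPM there and at 221 in the other members. Its median rule level was 63.8 per 10000 and Rgs5 was found in 90 of its 105 cells. Pericyte markers summed to 27.8 per 10000 in it and to 6.07 to 8.96 in the core by library. The core was mixed in this, at 13.5 in sub-cluster 2, 6.55 in sub-cluster 3 and 3.24 in sub-cluster 4. It is called pericyte-led here.

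Sub-cluster 1 held 51 cells and went against the label. Its leading genes were Emp1, Cyp1b1, Srgn, Cxcl1, Mmrn2, Cd93, Tnfaip3 and Thbd, several of which are known from endothelium, although only cells low in Flt1, Kdr and Emcn had been admitted. Acta2 was found in 49 of its cells and Myh11 in 50, Pecam1 in 29 and Cdh5 in 33. Its cells were deep, with a median of 5823 UMIs, and 3 were marked as doublets. Endothelial markers summed to 14.03 per 10000 in it, against 0 to 0.70 in the other sub-clusters, though none of that list was among its first 10 genes. Satellite glia markers summed to 19.4 per 10000 and non-myelinating Schwann markers to 19.3, which in sub-clusters 2 to 5 were at 8.16 to 11.8 and 2.00 to 3.16. Most of that Schwann sum came from Emp1, which is on the Schwann list and stood at 1710 CPM in sub-cluster 1. In endothelial cells chosen by Flt1, Kdr and Emcn, Emp1 stood at 893, 1040, 855 and 849 CPM. It is called endothelial-led for short and given no cell type name. Sub-cluster 6 (22 cells, median 3628 UMIs, 6 marked as doublets) had the glial gene Fabp7 among its first 10 genes and is called glia-led. Satellite glia markers summed to 70.1 per 10000 in it.

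The endothelial-led cells were concentrated in the library Sham 1. They numbered 33 and 9 in the Sham libraries and 3 and 6 in the CPIP libraries. Being deep, they held 56.4% of all member UMIs in Sham 1, against 10.1%, 2.31% and 8.71% in the other libraries, and the core held 26.4% in Sham 1 against 70.7%, 64.4% and 61.8%. Sums over all members in Sham 1 therefore came largely from endothelial-led cells, and gene results are given for all members and for the core. The core was defined after the values had been seen, so its values are a description. The pericyte-led cells were a larger part of the members in CPIP, with 26.4% and 23.2% of cells against 17.2% and 16.9% in Sham. No barcode of a member occurred in another library.

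**Figure D1:**
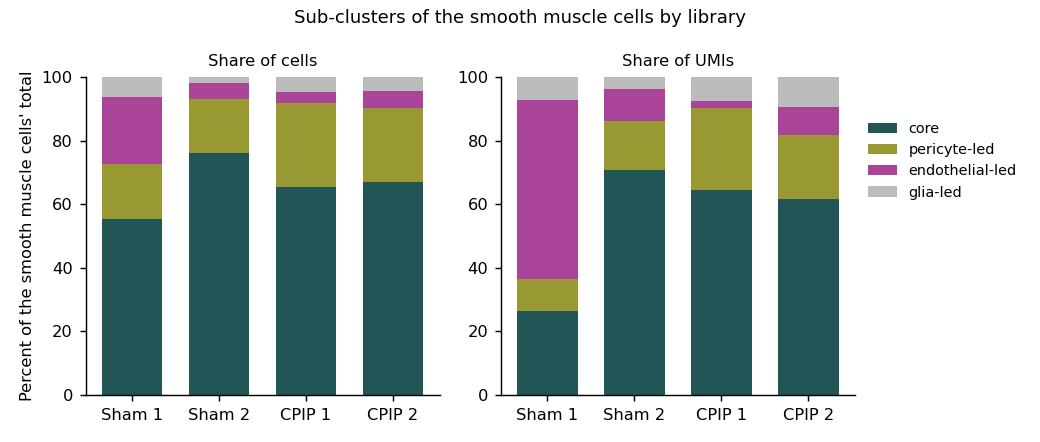
Make-up of the smooth muscle cells in each library, as the percent of cells (left) and the percent of UMIs (right) in the core, pericyte-led, endothelial-led and glia-led sub-clusters. In Sham 1 the endothelial-led cells were 21.0% of the cells and 56.4% of the UMIs.

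Levels of the leading genes are given across cell classes, in CPM over all UMIs with the SD over 4 libraries. Myh11 stood at 6104 ± 633 CPM in the core, at 3457 ± 200 in the pericyte-led cells and at 10.1 ± 1.66 in all other retained cells. Acta2 stood at 5912 ± 548 CPM in the core and at 9.52 ± 2.58 in other cells. In 38 cells that met a pericyte rule (Kcnj8, Abcc9 and Higd1b together at 20 or more per 10000 and low in the genes of the other classes, 6 to 15 cells per library) Acta2 stood at 380 ± 265 CPM, and in endothelial cells (Flt1, Kdr and Emcn at 20 or more) at 44.5 ± 12.3. These are rule genes, so the contrast was built in.

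Genes that the rule did not use were also far above their level in other cells. Fmod, fibromodulin, a collagen-binding proteoglycan of the matrix, stood at 1880 ± 78.4 CPM in the core and 2128 ± 301 in the pericyte-led cells. It was at 20.1 ± 6.08 in endothelial cells, 5.23 ± 0.396 in all other cells, and had no UMI in the 38 pericytes. Those pericytes held only 5237, 9255, 20648 and 8675 UMIs by library, so a low level could go unseen. Map3k7cl stood at 1752 ± 205 CPM in the core and 4.40 ± 0.403 in other cells. Dlk1, a Notch-related membrane protein, was at 722 ± 270 and 1.69 ± 0.330, and Mill1, an MHC class I-like gene, at 476 ± 82.4 and 0.491 ± 0.0532. Others of the 15 leading genes were the tropomyosin Tpm2, Mustn1, the actin-binding Nexn, Xirp1 and the RNA-binding Rbpms2.

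The growth factor Igf2, also a leading gene, was highest elsewhere. It stood at 440 ± 81.5 CPM in the core, 513 ± 130 in pericytes and 13.3 ± 3.05 in other cells, but at 2314 ± 1272 in the endothelial-led sub-cluster.

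**Figure D2:**
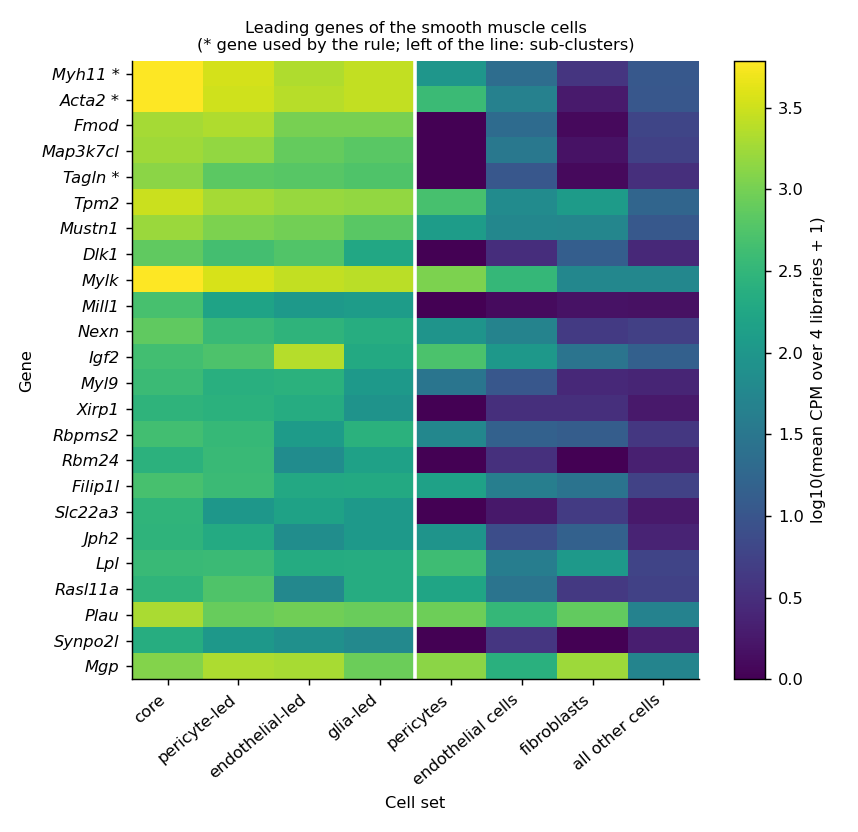
Mean level over the 4 libraries, as log10(CPM + 1), of the named leading genes of the smooth muscle cells in the 4 kinds of sub-cluster (left of the white line) and in other cell classes. Fmod, Map3k7cl, Dlk1 and Mill1 were dark in the pericytes chosen by rule, which held few UMIs, and bright in every sub-cluster. Tagln was too, but it is a rule gene, so its contrast was built in. Mylk, Plau and Mgp were also seen in other mural or stromal cells.

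Receptors that set vascular tone were mostly too sparse to test: 8 of the 56 measured passed the low-count filter. Npy1r, the neuropeptide Y receptor through which sympathetic nerves constrict vessels, was prominent, with 418, 385, 187 and 169 UMIs. It stood at 976 ± 158 CPM in the core, 890 in the pericyte-led cells, 231 in pericytes, 40.0 in endothelial cells and 46.5 ± 4.83 in all other cells. Ednra, the endothelin A receptor, had 50, 65, 37 and 27 UMIs and stood at 164 ± 37.6 CPM in the core, 334 in pericytes and 7.92 ± 0.935 in other cells. The alpha-1 adrenergic receptors were nearly unseen at this depth: Adra1a had 1, 0, 1 and 0 UMIs, Adra1d 4, 3, 0 and 2, and Adra1b none, where a count of 0 allows between 5.27 CPM in Sham 1 and 16.9 CPM in CPIP 1. Adra2a had 20, 17, 12 and 10 UMIs and was higher in pericytes (731 CPM) than in the core (40.3). The pericyte levels of these receptors rest on few UMIs, since those cells held 5237, 9255, 20648 and 8675 UMIs by library. The transcriptional co-activator Myocd, myocardin, had 9, 26, 12 and 10 UMIs and stood at 70.9 ± 18.2 CPM in the core and 0.142 ± 0.0647 in other cells.

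Both CPIP libraries held a smaller share of smooth muscle cells than both Sham libraries. Of retained cells, they made up 1.39% (95% exact binomial interval 1.18 to 1.62) in Sham 1 and 1.53% (1.31 to 1.78) in Sham 2. The CPIP libraries had 0.715% (0.573 to 0.881) and 0.936% (0.771 to 1.12). The intervals cover counting error only. The group means were 1.46% ± 0.101 (SD, n = 2 libraries) and 0.825% ± 0.156, a log2 ratio of −0.82. The two-sided exact permutation test gave p = 0.333, which is the smallest p that 2 against 2 libraries allow, so no share could pass it. Fewer smooth muscle cells in the tissue and fewer recovered by dissociation cannot be told apart here.

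The core was lower in both CPIP libraries too, at 0.770% and 1.17% in Sham against 0.468% and 0.627% in CPIP, with a narrow gap between Sham 1 and CPIP 2. The pericyte-led cells differed less, at 0.239% and 0.258% against 0.189% and 0.217%. Set against endothelial cells found by a like rule, there were 22.3, 24.9, 13.3 and 18.2 smooth muscle cells per 100 endothelial cells, and 12.3, 18.9, 8.74 and 12.2 core cells. With the core, CPIP 2 was nearly level with Sham 1. Without the endothelial-led and glia-led cells alone the values were 16.2, 23.1, 12.3 and 16.4, so that CPIP 2 lay above Sham 1. At a limit of 10% mitochondrial UMIs only 14 to 24 cells a library were left, and the order no longer held: 0.334% and 0.451% against 0.225% and 0.353%. Shares of dissociated cells also moved for fibroblasts, which made up 1.29%, 0.641%, 1.57% and 3.68%, and their part in the difference was not tested.

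**Figure D3:**
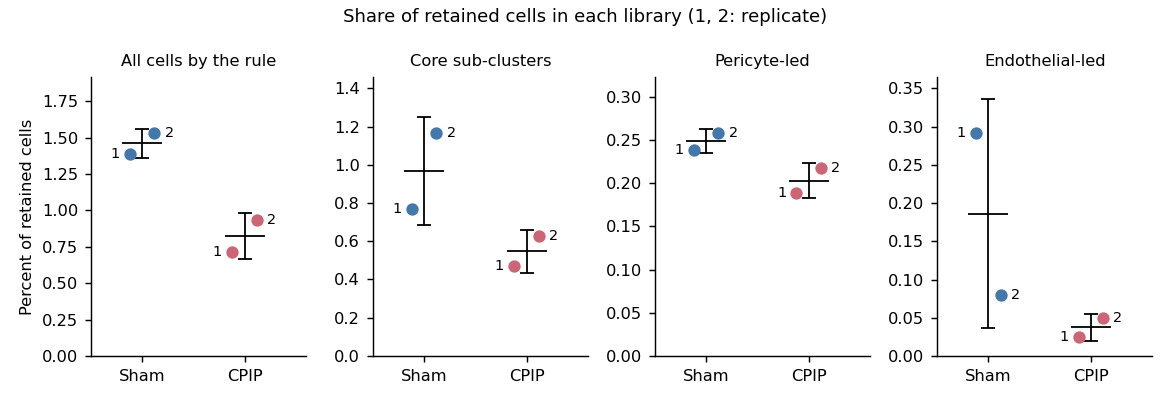
Share of retained cells in each library (points, labelled by replicate) with the group mean and SD (bars, n = 2) for all cells by the rule, the core, the pericyte-led and the endothelial-led sub-clusters; the panels have different scales. Both CPIP points lie below both Sham points in every panel.

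The level of the 4 rule genes among members is a description only, because the same sum admitted the cells. Its median was 97.3 and 106 per 10000 UMIs in Sham and 101 and 112 in CPIP, with overlap, and in the core it was 130 and 121 against 117 and 127.

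Gene expression was then compared between CPIP and Sham on UMIs summed over the members of each library. No gene passed: 0 of 4546 tested genes (0.0%) had an adjusted p under 0.05 in edgeR's quasi-likelihood test with Benjamini-Hochberg adjustment, and the smallest adjusted p was 0.856. At an unadjusted p under 0.05 there were 248 genes (5.46%), 118 higher (2.6%) and 130 lower (2.86%) in CPIP. DESeq2 called 0 with 50 at an unadjusted p under 0.05. On simulated counts with the same libraries the test called 22 of 90 genes changed 2-fold and 81 of 94 changed 4-fold, with 6 false calls, so most changes of 2-fold would be missed. Without Sham 2, which leaves Sham 1 as the only Sham library, 165 genes (3.72%) were called, and without Sham 1 there were 4 (0.0904%). In those fits the lone library was taken to vary like the other group. With no low-count filter 87 of 13697 genes (0.635%) were called. Changes of single genes are given as log2 ratios, CPIP to Sham, each with its standard error (SE). Their levels are CPM of the tested genes' UMIs after TMM scaling, and in the fit over all members every adjusted p of a named gene was at least 0.856.

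The contractile apparatus showed no common direction. Of its 31 tested genes none was called, 17 were higher on average and 14 lower (50.1% of all genes were higher), and the median log2 change was 0.05, against 0.00055 for all genes. Myh11 stood at 4550, 5769, 5473 and 4406 CPM. Mylk, the kinase that starts contraction, stood at 4398, 5754, 5205 and 4526. For both, the groups overlapped. In the core both were lower in both CPIP libraries, Myh11 at 7818 and 7572 against 7009 and 6238 CPM and Mylk at 7325 and 7341 against 6766 and 6319. Acta2 was at 4556, 4739, 4842 and 5185 CPM (log2 0.11 ± 0.16), slightly higher in both CPIP libraries, and at 7795, 6177, 6623 and 7176 in the core, where the groups overlapped. Tagln ran high in CPIP 2 only, with 1039, 784, 655 and 2158 CPM, and was at 1387, 1069, 924 and 3030 in the core. In the core 10 of 28 contractile genes were higher and 18 lower, with a median of −0.04. Both CPIP libraries lay below both Sham libraries for 8 of the 28 (17.3% of all core genes did) and above for 3 (16.7%).

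Regulators of the contractile programme had no called gene. Of 19 tested genes 10 were higher, with a median of 0.05, and 5 of 15 in the core, with a median of −0.18. In the core 7 of the 15 had both CPIP libraries below both Sham libraries (Foxc2, Nr2f1, Jag1, Hey2, Hes1, Ebf1 and Zfhx3) and 0 above, beside 17.3% and 16.7% of all core genes. Klf4, a factor tied to the switch from contractile to synthetic smooth muscle, stood at 1982, 1758, 1834 and 1495 CPM. In the core its values were 1810, 1910, 1798 and 1858. Hey2, a target of Notch signalling, was lower in both CPIP libraries, at 201 and 212 against 131 and 151 CPM (log2 −0.54 ± 0.26). In the core it was at 259 and 276 against 173 and 137 (−0.81 ± 0.30). Nr2f2, a factor of venous identity, was at 684, 1048, 1036 and 766 CPM with overlap.

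The vasoactive receptors that could be tested split evenly, 4 higher and 4 lower with a median of −0.06, and all 4 tested in the core were lower, with a median of −0.15. Npy1r stood at 839 and 1019 CPM in Sham and 1114 and 752 in CPIP, a log2 change of 0.00 ± 0.24. Ednra stood at 100, 172, 220 and 120 CPM (0.31 ± 0.37). The sphingosine phosphate receptor S1pr1 stood at 195, 103, 29.8 and 40.1 CPM (−2.07 ± 0.44), but 90.7% of its UMIs were in endothelial-led cells. Of its 97, 39, 5 and 9 UMIs, 90, 36, 3 and 7 lay there. Its core values, which rest on few UMIs, were 15.7, 12.4, 10.2 and 16.2 CPM.

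Cyclic nucleotide and G-protein regulators were higher more often than lower, 17 of 21 in all members with a median of 0.22, and 10 of 15 in the core with a median of 0.09; none was called. Rgs5 stood at 293, 461, 798 and 734 CPM, higher in both CPIP libraries (log2 1.03 ± 0.25). However, 58.3% of its UMIs were in the pericyte-led cells, which held 10.05% and 15.4% of member UMIs in Sham and 25.8% and 20.03% in CPIP. Within the pericyte-led cells Rgs5 was itself higher in both CPIP libraries, at 1380 and 1451 against 2096 and 2030 CPM over all UMIs. The part of make-up and of level in the difference was not tested. In the core Rgs5 was at 345, 231, 315 and 477 CPM and the groups overlapped. Adcy6, an adenylyl cyclase, was at 36.1, 50.3, 59.6 and 169 CPM, with most of its difference in CPIP 2.

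Prkg1 was the only gene of this list with both CPIP libraries below both Sham libraries. The cGMP-dependent kinase stood at 185 and 249 CPM in Sham and 131 and 125 in CPIP (log2 −0.76 ± 0.28). In the core it stood at 345 and 297 against 173 and 121, with 44, 72, 17 and 15 UMIs behind these levels (−1.13 ± 0.31). The endothelial-led cells held 13.1% of its UMIs, less than their 27.9% of all UMIs. Gucy1a1, a subunit of the guanylyl cyclase upstream of it, showed no such separation, at 167, 283, 250 and 169 CPM.

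Among ion channels and calcium handling genes 15 of 25 were higher, median 0.04, and 9 of 18 in the core. Ano1, the calcium-activated chloride channel that depolarises smooth muscle, stood at 112, 124, 244 and 218 CPM (log2 0.96 ± 0.26), and at 172, 136, 213 and 218 in the core. Gjc1, the gap junction protein connexin 45, stood at 303, 336, 590 and 432 CPM, and at 400, 281, 498 and 453 in the core. Both genes were higher in both CPIP libraries in either set, with 32.6% and 29.3% of their UMIs in pericyte-led cells. The sodium pump subunit Atp1b2 was at 1485, 1936, 2180 and 2208 CPM, and in the core at 2139, 2150, 2204 and 2392.

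The mural cell and pericyte genes had a median of 0.27, with 11 of 17 higher, and −0.07 in the core, with 4 of 10 higher. Pdgfrb, the receptor through which platelet-derived growth factor recruits mural cells, stood at 84.3, 109, 185 and 138 CPM, and at 110, 120, 193 and 137 in the core. The larger pericyte-led share of member cells in CPIP moved with these values, and its part in them was not tested.

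**Figure D4:**
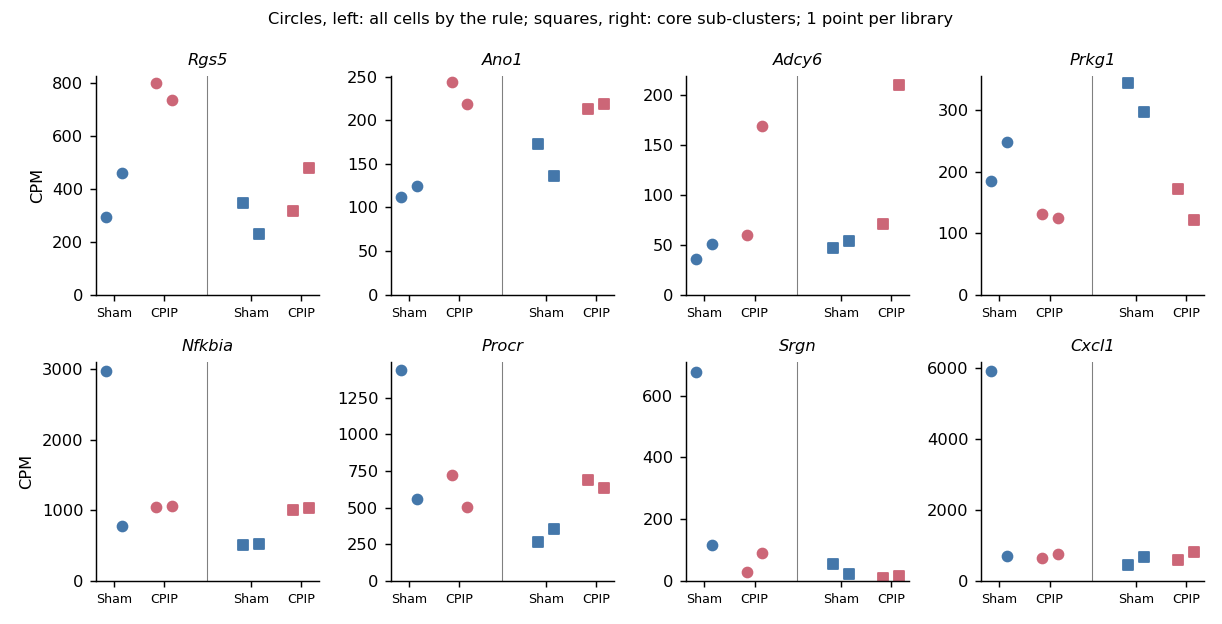
CPM of 8 genes in each library for all cells by the rule (circles) and for the core sub-clusters (squares), Sham in blue and CPIP in red; axes start at 0 and differ between genes. Among all cells Srgn and Cxcl1 were high in Sham 1 only, and Nfkbia and Procr were higher in both CPIP libraries of the core.

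Single genes were picked by size of change where the mean level reached 50 CPM, the unadjusted p was under 0.05 and the libraries of the groups did not overlap (in all tested genes 17.9% had both CPIP values above and 17.3% below the Sham values). The 10 with the largest decrease in mean were Ptprm, Srgn, Thbd, Mmrn2, S100a16, Ptprb, S1pr1, Lpar6, Gch1 and Slfn2. Several are endothelial: Thbd is thrombomodulin, Ptprb a phosphatase of vascular endothelium and Mmrn2 an endothelial matrix protein. Their log2 changes ran from −2.80 to −1.77, and 77.1% to 98.7% of their UMIs lay in the endothelial-led sub-cluster. Without Sham 1 the log2 change was smaller, at −0.90 for Srgn, −1.07 for Thbd, −0.91 for Mmrn2 and −0.99 for S100a16. It was also smaller for Ptprb (−0.59), Slfn2 (−0.71) and Ptprm (−1.78). For Lpar6 (104, 84.7, 29.8 and 17.8 CPM) and S1pr1 (195, 103, 29.8 and 40.1) Sham 2 also lay far above both CPIP libraries. Gch1, at 161, 37.1, 17.9 and 35.6 CPM, had Sham 2 close to CPIP 2. Srgn, the proteoglycan serglycin, had 337, 44, 5 and 20 UMIs, and Mmrn2 had 177, 25, 2 and 12. In the core, Mmrn2 had 1 UMI in Sham 1 and 0 elsewhere. Ptprm, a receptor phosphatase of cell contacts, had 79, 20, 2 and 4 UMIs, of which 72, 6, 0 and 3 lay in endothelial-led cells. In the core it was at 47.0 and 41.3 CPM in Sham and 20.3 and 8.08 in CPIP. These core levels rest on few UMIs, and Ptprm was not tested there.

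The 10 highest genes by the same rule were Runx1t1, Mpp2, Etv1, Adcy6, Slc6a17, Rbmxl1, Mbp, Dpy19l1, Ppp2r1a and Inf2, with log2 changes from 1.27 to 1.80. The endothelial-led cells held 6.12% to 21.99% of their UMIs. Ppp2r1a, the scaffold subunit of protein phosphatase 2A, stood at 96.3, 87.4, 143 and 298 CPM. Inf2, a formin that shapes actin filaments, stood at 124, 98.0, 155 and 374 CPM, and at 125, 124, 173 and 541 in the core. For both, CPIP 2 was far above CPIP 1. Rbmxl1, an RNA-binding protein, was more even, at 36.1, 34.4, 83.4 and 97.9 CPM. Mbp, myelin basic protein, stood at 106, 39.7, 268 and 125 CPM; it is a Schwann cell gene, and myelinating Schwann markers summed to 6.71, 3.34, 8.27 and 8.55 per 10000 in the same libraries. With glial marker cells removed, the log2 change of Mbp went from 1.35 to 0.25. In the core Mbp was at 47.0, 16.5, 305 and 56.6 CPM.

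The values of several inflammatory genes depended on the cells counted. In all members, Cxcl1, a neutrophil-attracting chemokine, stood at 5900, 702, 631 and 757 CPM, with 83.9% of UMIs in endothelial-led cells, and in the core at 454, 664, 599 and 800, where the sign of the difference turned (log2 −2.25 and 0.30). Il6, an inflammatory cytokine, stood at 766, 119, 77.4 and 160 CPM, and at 47.0, 94.9, 50.8 and 80.8 in the core, where the sign held but the groups overlapped (−1.87 and −0.19). The NF-kB and adhesion list was mostly lower in all members, 10 of 13 with a median of −0.15, and 4 of 7 were higher in the core, median 0.27.

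Nfkbia, the inhibitor that NF-kB itself induces, stood at 2983, 781, 1042 and 1055 CPM in all members. In the core it stood at 509 and 524 in Sham and 1006 and 1034 in CPIP (65, 127, 99 and 128 UMIs; log2 0.98 ± 0.18). Procr, the protein C receptor, stood at 1436, 556, 721 and 503 CPM in all members and at 266, 351, 691 and 630 in the core (1.05 ± 0.22). Both were chosen after their values had been seen, and neither was called. Of the core's 2663 genes 0 (0.0%) were called in edgeR or DESeq2, 139 (5.22%) had an unadjusted p under 0.05 in edgeR, 89 higher (3.34%) and 50 lower (1.88%), and 12 in DESeq2. Leaving out 1 library gave 4 calls in the core without Sham 1 (0.128%), 2 without Sham 2 (0.0627%), 33 without CPIP 1 (1.06%) and 4 without CPIP 2.

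Immediate early and dissociation response genes, which can be induced while tissue is digested, also had medians of opposite sign in the 2 sets. Of 34 tested, 14 were higher in all members (median −0.12). In the core 23 of 30 were higher (median 0.14, against −0.01 for all genes), and for 12 of them both CPIP libraries lay above both Sham libraries (16.7% of all core genes did). Fosb stood at 4747, 4655, 5222 and 4614 CPM in the core and Egr1 at 2977, 2835, 3007 and 3200, so these abundant members differed little. Heat shock proteins were higher in 8 of 20 in all members and 12 of 17 in the core, with Hspa1b at 1191, 1197, 1656 and 1414 CPM in the core.

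Matrix genes, the product of synthetic smooth muscle, were higher in 20 of 42 cases, median −0.02, and in 13 of 30 in the core. Adamts1, a matrix protease, stood at 4588, 4292, 5312 and 3992 CPM and Sparc, a matrix-binding glycoprotein, at 2560, 3265, 2710 and 3329. Col1a1 was lower in both CPIP libraries in the core, at 1176 and 1119 against 996 and 841 CPM over all UMIs, against 39739 ± 4707 in fibroblasts (SD over 4 libraries). Genes of phenotypic modulation split 9 higher and 13 lower, median −0.06, and 7 and 11 in the core. Vim, the intermediate filament vimentin, stood at 4925, 1959, 1709 and 2154 CPM with 54.1% of UMIs in endothelial-led cells, and at 2616, 2125, 2143 and 2400 in the core.

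Growth and neurotrophic factors had a median of 0.03, with 9 of 18 higher, and 0.18 in the core, with 10 of 13 higher. Igf2 stood at 2337, 778, 357 and 579 CPM (log2 −1.73 ± 0.44), with 73.3% of its UMIs in endothelial-led cells, and at 556, 466, 406 and 638 in the core. The median of the hypoxia and glycolysis list was −0.22 (8 of 25 higher), that of TGF-beta and BMP signalling −0.19 (9 of 25), of oxidative stress defence −0.18 (6 of 23), of interferon response and antigen presentation −0.12 (3 of 11) and of clock and glucocorticoid response −0.01 (8 of 16). In the core these medians were −0.08, −0.16, 0.15, −0.01 and 0.07, so the medians of the oxidative stress and clock lists had the opposite sign. Arterial and venous genes had a median of 0.05 (13 of 21 higher) and −0.14 in the core (8 of 18), and cytokines and chemokines 0.06 (4 of 8) and −0.01 (3 of 6). No gene of these lists was called.

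**Figure D5:**
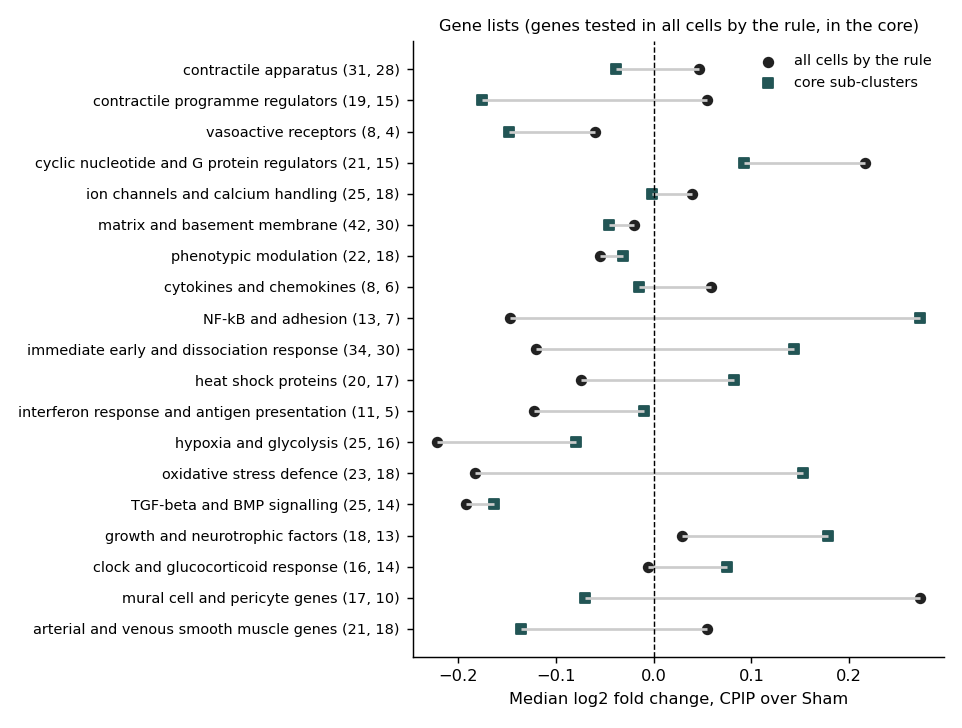
Median log2 fold change, CPIP over Sham, of 19 gene lists in all cells by the rule (circles) and in the core (squares), with the number of genes tested in each set in brackets; the dashed line is the median of all tested genes. The NF-kB, immediate early, heat shock and oxidative stress lists lie left of the line in all cells and right of it in the core.

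The CPIP effect in the smooth muscle cells was finally set against that in other cells by an interaction term in edgeR. Against all other retained cells 71 of 15052 genes (0.472%) passed at an adjusted p under 0.05, 65 with a lower and 6 with a higher effect in smooth muscle cells. For 52 of the 71, at least 50% of the smooth muscle UMIs lay in the endothelial-led sub-cluster. Higher were Rgs5 and Etv1 among the named genes, and Sostdc1, Esm1, Top2a and Dner, named after their values were seen. Esm1 had 9 UMIs, all in CPIP 2, and Top2a 2, 0, 2 and 13. The p-values of this fit used a spread shared over genes, not each gene's own spread between libraries. A gene high in 1 library could thus pass, as Cxcl1 did at 5164, 665, 596 and 713 CPM over all UMIs. Without Sham 1 the count was 17 (0.11%), without Sham 2 it was 242 (1.56%), without CPIP 1 it was 21 (0.136%) and without CPIP 2 it was 33 (0.214%). With glial marker cells removed it was 73 (0.485%). In the core it was 7 (0.0468%), among them Col1a1, Ogn, Mgp and Col3a1 with a lower effect and Procr and Mbp with a higher one. For Mgp and Col3a1 the core itself differed little, at 1136, 1261, 1153 and 1323 and at 259, 277, 253 and 224 CPM over all UMIs. The other cells had 39.2, 30.4, 58.8 and 72.8 CPM of Mgp, 504, 252, 492 and 985 of Col3a1 and 996, 616, 1000 and 2026 of Col1a1, and the fibroblast share among retained cells ran alongside at 1.29%, 0.641%, 1.57% and 3.68%; its part was not tested. Against endothelial cells 1 of 9600 genes (0.0104%) passed, the sulfatase Sulf1, with 109, 10, 0 and 1 UMIs, of which 95.8% lay in endothelial-led cells. The count was 3 (0.0297%) without Sham 1, 228 (2.25%) without Sham 2, 0 without either CPIP library, 1 (0.0106%) with glial marker cells removed and 6 (0.0646%) in the core. Against the 38 pericytes 0 of 3062 genes (0.0%) passed.

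The pseudogene Rpl10a-ps9 was also looked up. In the smooth muscle cells it had 0, 0, 2 and 14 UMIs, too few for the test, and as a pseudogene it may share reads with near-identical copies.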

How the data were processed

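Whole-transcriptome libraries (BD Rhapsody, per the labels' protocols) were analysed from the raw UMI counts for each gene and barcode that the authors deposited. Aligner, build, annotation and cell calling: not given in the sources used here. The members and gene lists were chosen with earlier results of these data known. Barcodes needed 200 genes and at most 25% mitochondrial UMIs, which left 11306, 11229, 12175 and 11969 cells (Sham 1, Sham 2, CPIP 1, CPIP 2) with 58793015 to 61957232 UMIs a library. Members numbered 157, 172, 87 and 112, with 569547, 398575, 177804 and 238525 UMIs. Intervals and limits from a count of 0 (3 UMIs) cover counting error only. Doublets stayed in. As an alternative they were called with scrublet in scanpy 1.11.5, which marked under 0.5% of cells in 3 libraries, where the highest 5% of scores were removed instead. Members were clustered on 1500 variable genes, 20 components and 15 neighbours (Leiden, resolution 0.5).

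UMIs were summed per library and tested in edgeR 4.0.16 (R 4.3.3; quasi-likelihood test, TMM, default low-count filter, Benjamini-Hochberg adjustment over all tested genes), which was tested on simulated data. DESeq2 1.42.0 was an alternative. Each library pools 3 rats, so p-values of the fits of CPIP against Sham with all libraries measure the spread between pools. With 1 library left out, 1 group had a single library, so the p-values of those fits do not measure that group's own spread between pools. The interaction over all members against other cells, and those of the core against other and endothelial cells, used a spread shared over genes. Their p-values do not measure each gene's own spread between pools. Shares were compared with an exact permutation test over libraries. The alternatives changed the rule's threshold, depth and mitochondrial limits, doublets, marker cells, sub-clusters, normalization, the low-count filter and the libraries kept.

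Named genes are the 10 largest increases and decreases by the criteria in the text, genes among the 4 of each list with the highest mean CPM, the rule genes and Rpl10a-ps9. Ano1, Gjc1, Gucy1a1, Hey2, Pdgfrb, Prkg1, Procr, Col1a1, Adra2a, the alpha-1 receptors and Myocd were chosen after their values had been seen, as were any others outside that rule. Of 708 list symbols 688 were in the files, and of 111 marker symbols 107. Promoter sequences are from RefSeq (GRCr8), where 10 of 12 contractile genes searched were matched by symbol. Some genes are not reported here.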

Additional observations from a re-analysis of the deposited data

Results flagged for a closer look

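The effect of CPIP differed from that in all other retained cells for 71 genes, and from that in endothelial cells for 1, by an interaction term in edgeR with Benjamini-Hochberg adjustment. Against all other cells the p-values used a spread shared over genes, so a gene high in 1 library could pass. Among the named genes the log2 effect in smooth muscle cells minus that in other cells was 1.47 for Etv1 and 1.11 for Rgs5. Neither was called in the core, where both genes' groups overlapped, and the pericyte-led cells held 31.8% and 58.3% of their UMIs. Within the pericyte-led cells Rgs5 itself was higher in both CPIP libraries. The log2 difference in effect was negative for Ptprm (−2.73), Mmrn2 (−2.65), Srgn (−2.52), Thbd (−2.44), S100a16 (−2.40), Cxcl1 (−2.21), Ptprb (−2.10), Lpar6 (−2.09), Gch1 (−2.003), Il6 (−1.84), S1pr1 (−1.79), Slfn2 (−1.60), Igf2 (−1.23) and Hbegf (−1.12). The endothelial-led sub-cluster, with 33 of its 51 cells in Sham 1, held at least 61.6% of the UMIs of each of these negative genes, and its part in the differences was not tested.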

How the results depend on the processing

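With 2 libraries a group and 87 to 172 cells a library, most 2-fold changes could not be called. The share of smooth muscle cells was lower in CPIP under the 14 alternatives run, from −0.44 (at most 10% mitochondrial UMIs) to −1.03 (without CPIP 2) on the log2 scale. Called genes numbered 0 in every fit of CPIP against Sham with 4 libraries other than that without the low-count filter, where they numbered 87 (74 lower), and from 0 to 165 with 1 library left out. The interaction count against other cells was 7 in the core and 17 to 242 with 1 library left out. Against endothelial cells it was 6 in the core and 0 to 228. The log2 ratio of the median contractile level, 0.07, is a description, since the rule cuts the value compared; it became −0.082 at a threshold of 100 per 10000, −0.10 at 10% mitochondrial UMIs, −0.030 without the endothelial-led and glia-led sub-clusters, −0.036 in the core and −0.012 to 0.14 with 1 library left out. The cause was not tested.

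Of 576 alternative values of 36 named genes, 20 had the opposite sign and 43 passed the threshold. Acta2 was −0.035 at the threshold of 100, −0.25 at 10% mitochondrial UMIs, −0.10 without the endothelial-led and glia-led sub-clusters and −0.014 in the core. At the threshold of 100, without those sub-clusters and in the core, Nfkbia was 0.18, 0.70 and 0.98 and Procr 0.62, 0.53 and 1.05. Cxcl1 was 0.24 without those sub-clusters and 0.30 in the core, Igf2 0.073 in the core, and Il6 0.42 without those sub-clusters. With 1 library left out, the ranges were −1.52 to 0.42 for Nfkbia, −1.26 to 0.12 for Procr, −2.65 to 0.034 for Il6, −0.25 (without CPIP 1) to 0.10 (without Sham 2) for Myh11 and −0.48 (without CPIP 2) to 1.22 for Tagln.

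The labels give the groups the same replicate numbers but no pairing. Same-numbered libraries did not deviate together (r = −0.22 across 3330 genes, which are not independent), and the fit with the replicate block called 0 genes, with 151 at an unadjusted p under 0.05. The sub-cluster alternatives, the share relative to endothelial cells and the promoter search with a mismatch were chosen after seeing the data.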
